A study of Mus musculus with 12 samples.

Results

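The response of Rasgef1b knockout macrophages to R848 was read from 6 of the 12 arrays of the study, the 3 knockout arrays treated with R848 and the 3 given saline, chosen by their sample titles. The genotype is written Rasgef1b_fl/fl_vav-icre: a floxed Rasgef1b gene, which encodes an exchange factor that loads Ras-family GTPases with GTP, is cut by a Cre recombinase under the Vav promoter, which is active in blood-forming cells. Macrophages were grown from marrow with conditioned medium of L929, a fibroblast line that secretes the macrophage growth factor CSF-1. R848 was given for 4 h, and no time is named for saline. The other 6 arrays hold wild-type macrophages with R848 or saline, and their values are given only where both genotypes are set side by side. They also enter the fit behind each SE and p-value, the brightness filter and the choice of each gene's row. No group carries Cre without the floxed allele, and what Cre itself does and what the missing gene does cannot be told apart. The dose of R848, the strain and age of the mice, whether marrow was pooled and which exon is removed are not stated in the labels. Of 22180 genes read by a row with 1 gene symbol, 14079 were bright enough to be tested, and the remaining 8101 were not tested. Values are log2 intensities normalized by RMA, so a difference of 1 is a 2-fold change, and the values of replicates 1, 2 and 3 are given in that order. Changes carry the standard error (SE) of limma's linear model, and p-values are adjusted over all tested genes by the Benjamini-Hochberg method, with 0.05 as the threshold.

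R848 is a small imidazoquinoline that enters cells and activates TLR7 in mouse endosomes, a receptor that normally detects single-stranded RNA. TLR7 signals through the adaptor MyD88 and IRAK kinases to NF-kB and MAP kinases, which switch on cytokine, chemokine and enzyme genes, and through IRF factors to type I interferon. The early genes include the pathway's own brakes, inhibitors and mRNA-destabilizing proteins that limit the response in time.

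The targeted gene was read first. Rasgef1b stood at 8.63, 7.88 and 8.72 in knockout cells with saline and at 9.45, 8.60 and 9.36 with R848, against 9.03, 9.19 and 9.14, and 9.84, 9.84 and 9.69, in wild type. Within each treatment every knockout array lay below every wild-type array, by -0.71 on average with saline and -0.65 with R848 (two-sided exact permutation p = 0.1 for each, the smallest that 3 against 3 arrays allow). Signal therefore remained in the knockout, and whether the row's probes lie outside the removed part is not known here, so it checks the labels only in part. With R848 the knockout level rose by 0.73 ± 0.21 (SE, adjusted p = 0.0125), with overlapping arrays. The same-numbered differences were 0.82, 0.72 and 0.64, replicate 2 being the lowest in both treatments, and with the replicate block within genotype the adjusted p was 1.17e-05. Without the block, the call was lost without knockout saline replicate 2 (0.462, adjusted p = 0.0681), without knockout R848 replicate 1 (0.570, 0.0633) and without knockout R848 replicate 3 (0.615, 0.0569).

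The cells carried macrophage markers throughout. The mean of 14 macrophage markers lay between 9.84 and 9.92 on the saline arrays and between 9.64 and 9.74 on the R848 arrays, with 13 to 14 of them above the dim limit, the level below which 40% of the rows of an array lie. Of the 13 tested, 4 rose (30.8%) and 6 fell (46.2%), against 15.6% and 26.0% of all tested genes. Their median was -0.18, Mertk was the only one at least 2-fold lower, and Cd163 was below the filter. With arrays centred over the tested genes 5 rose and 3 fell. The count of 4 was 2 without knockout saline replicate 3 or knockout R848 replicate 2 or 3. Marker lists of neutrophils, dendritic cells, mast cells and other granulocytes, lymphocytes, erythroid cells and platelets, and fibroblasts and endothelium had means between 3.67 and 4.83. Some of their members lay above the dim limit: 8 of 12 fibroblast and endothelial, 4 to 5 of 12 neutrophil and 3 to 4 of 8 dendritic cell markers. For lymphocytes it was 3 to 5 of 12, for erythroid cells and platelets 2 to 3 of 5, and for mast cells and other granulocytes 1 to 3 of 10. The neutrophil list moved from 4.24 to 4.26 with saline to 4.49 to 4.51 with R848, with Csf3r (2.16) and S100a9 (0.32) higher, Elane (-0.20) lower and Mmp8 (0.01) not past the threshold, while Ly6g and S100a8 were below the filter. Without knockout R848 replicate 3 S100a9 did not pass (adjusted p = 0.0512), and Elane did not pass without knockout saline replicate 1 or 3, without knockout R848 replicate 1 or 3 (adjusted p between 0.0791 and 0.113) or with the replicate block within genotype (0.0507). The fibroblast and endothelial list moved from 4.52 to 4.59 to 4.71 to 4.80, with Kdr (0.84), Pecam1 (0.45) and Pdgfrb (0.39) higher. The part of these lists in the results below was not tested. Arrays of the same knockout group correlated at 0.992 to 0.994 over the tested genes and arrays of different groups at 0.918 to 0.930. In bulk RNA, fewer cells of a type and less RNA per cell cannot be told apart.

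R848 changed a large share of the knockout transcriptome. Of the 14079 genes, 5858 (41.6%) passed the threshold, 2193 (15.6%) higher and 3665 (26.0%) lower, and for 6873 (48.8%) the saline and R848 arrays did not overlap. The counts of list members given below stand against these shares of 15.6% and 26.0%. With centring of the arrays over the tested genes, chosen after seeing the data, the higher share of the called genes was 63.6%, against 37.4% here and 47.2% with cyclic loess. Centring moved the median change of all tested genes from -0.03 to 0.12. Large changes depended less on this choice: 1087 genes (7.72%) passed the threshold and changed at least 2-fold, 543 (3.86%) higher and 544 (3.86%) lower, and 1051 did so after centring. When a change of at least 1 was itself tested, with limma's treat, 558 genes passed.

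Increases reached further than decreases. At least 4-fold changes were counted in 180 genes that rose and 62 that fell, at least 8-fold changes in 72 and 11, and at least 16-fold changes in 31 and 0. Only increases went past 32-fold (13 genes) and 64-fold (6 genes). Of the 543 genes at least 2-fold higher, 35 (6.45%) lay at or below the dim limit with saline, Il1b, Ptgs2, Cxcl3, Il1a, Fpr2, Il6, Serpinb2 and Adamts4 having the largest rises among them. Of the 544 at least 2-fold lower, 23 (4.23%) lay at or below it with R848, led by Arrdc3, Abcd2, Sox4, Wdr76, Pole2, Sncaip, Tcp11l2 and Arhgap19. Differences that start or end at background are compressed on arrays.

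**Figure D1:**
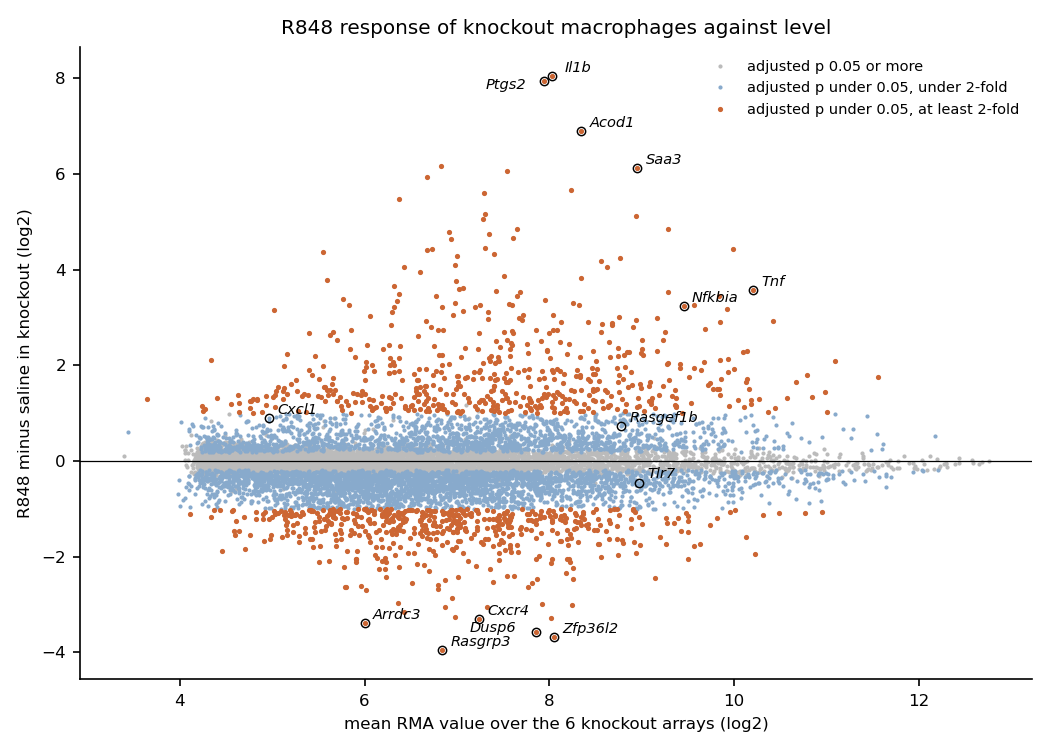
Change with R848 in knockout macrophages (log2, vertical) against the mean RMA value over the 6 knockout arrays (log2, horizontal), 1 point per tested gene. Coloured classes give the adjusted p and the 2-fold limit; increases reach 8.05 (Il1b) and decreases -3.96 (Rasgrp3), while Tlr7 (-0.45), Rasgef1b (0.73) and Cxcl1 (0.90) lie within 2-fold.

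The 15 largest increases were led by mediators of inflammation and by receptors. Il1b, the precursor of interleukin 1 beta, read 3.73, 4.08 and 4.21 with saline and 12.03, 12.08 and 12.06 with R848. Ptgs2, the inducible cyclooxygenase that starts prostaglandin synthesis, went from 4.02, 4.05 and 3.83 to 11.96, 11.97 and 11.81. Both genes thus moved from background to the top of the scale, whose highest value was 12.85, by 8.05 ± 0.10 and 7.95 ± 0.09 (SE, adjusted p = 1.51e-16 and 1.17e-16). Acod1, which makes itaconate from a citric acid cycle intermediate, rose from 4.89, 4.83 and 4.96 to 11.67, 11.91 and 11.80. Saa3, an acute-phase protein gene, rose from 5.78, 6.19 and 5.71 to 11.93, 12.11 and 11.98. Edn1, the precursor of the vasoconstrictor endothelin 1, rose from 4.67, 4.24 and 4.60 to 10.51, 10.57 and 10.63. In each of these genes the saline and R848 arrays were separated by more than 5 units.

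Receptors made up much of the rest. Gpr84, a receptor for medium-chain fatty acids, rose from 5.37, 5.42 and 5.43 to 11.13, 10.87 and 11.18, and Fpr2, a formyl peptide receptor, from 3.23, 3.56 and 4.11 to 8.98, 9.20 and 9.17. Cd69, an early activation antigen, rose by 5.60, Clec4e, the lectin receptor Mincle, by 4.84, and Tarm1, an activating receptor of myeloid cells, by 4.84. Gbp5, an interferon-inducible GTPase, rose by 5.16, Ifi205, of the PYHIN family, by 5.13, and Nos2, the inducible nitric oxide synthase, by 5.05. The other members of the 15 were the chemokine Cxcl3 (6.16) and Il1a (5.94). All 15 had groups that did not overlap, which the naming rule required.

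The 15 largest decreases held regulators of signalling, mRNA decay, trafficking and migration. Rasgrp3, a Ras and Rap activator, went from 8.94, 8.89 and 8.63 to 4.83, 4.75 and 5.01, a change of -3.96 ± 0.12 (SE, adjusted p = 2.01e-12). Zfp36l2, which binds AU-rich mRNA and promotes its decay, went from 10.00, 9.77 and 9.88 to 6.24, 6.14 and 6.24, and its paralog Zfp36l1 from 10.04, 9.64 and 9.55 to 6.97, 6.56 and 6.69. Dusp6, the phosphatase that switches off ERK, fell from 9.12, 9.94 and 9.85 to 6.08, 5.88 and 6.25. The levels after R848 were thus well above background for Zfp36l2, Zfp36l1 and Dusp6 and near it for Rasgrp3. Arrdc3, an alpha-arrestin, fell by 3.38, to 4.29, 4.35 and 4.29. Of genes for migration, Cxcr4, the CXCL12 receptor, fell by 3.31, S1pr1, the sphingosine 1-phosphate receptor, by 2.96, and Arhgap25, a Rac GTPase-activating protein, by 3.00. Rgs2, which shortens G protein signals, fell by 3.29, and Rasa3, which switches Ras and Rap off, fell by 2.87. Snx30 (-3.25) and Snx24 (-3.16) encode sorting nexins, and Lyl1 (-3.05) and Irf2bp2 (-3.06) regulators of transcription. Hmga2-ps1 (-2.69) is a pseudogene whose row may read its parent gene. Second rows of Irf2bp2 and Zfp36l1 changed by -0.53 and -1.31.

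**Figure D2:**
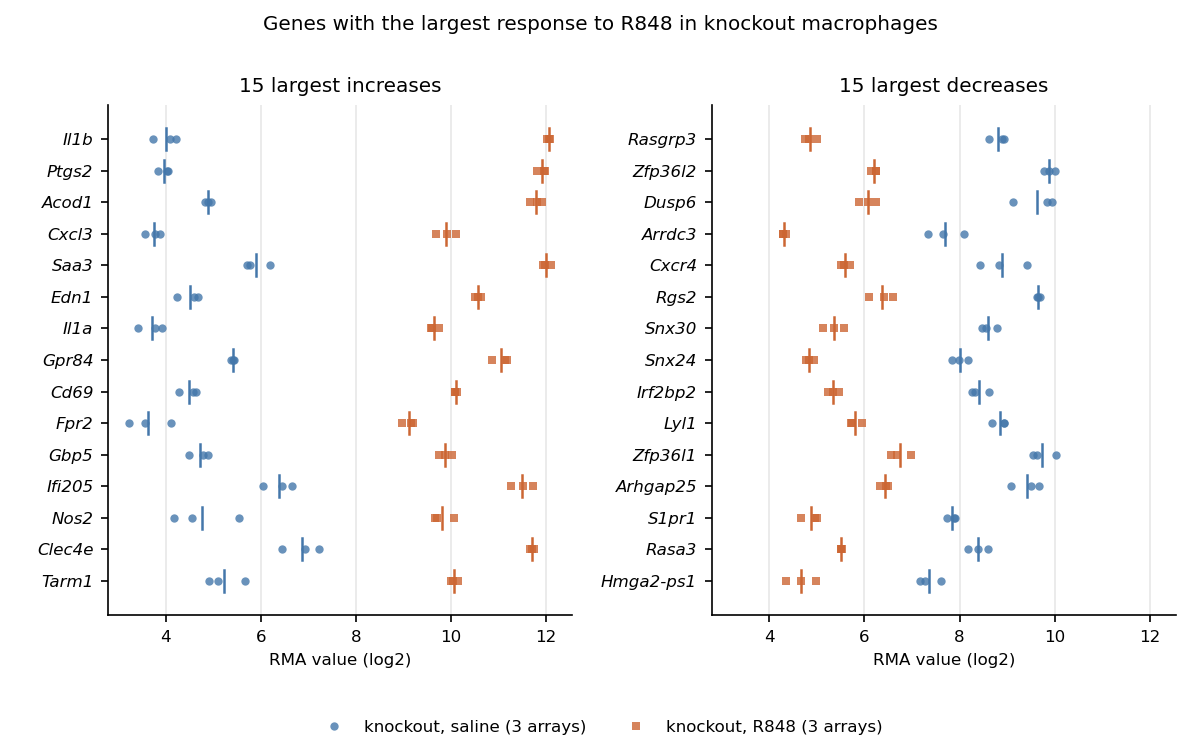
RMA values (log2) on the 3 saline arrays (circles) and 3 R848 arrays (squares) of knockout macrophages for the 15 largest increases (left) and 15 largest decreases (right), with a line at each group's mean. No gene's groups overlap, and the R848 values of Il1b, Ptgs2, Acod1 and Saa3 lie between 11.67 and 12.11.

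The receptor that R848 binds and its partners changed less than 2-fold, while inducible kinases of the pathway rose. Tlr7 fell from 9.25, 9.28 and 9.04 to 8.72, 8.83 and 8.67, by 0.45 ± 0.08 (SE, adjusted p = 0.00046), and the saline and R848 arrays did not overlap. Of 25 tested genes from receptor to kinases, 9 rose and 9 fell, and 7 did not pass, with a median change of 0.08 against -0.03 over all tested genes. The rises and falls were 36.0% each, against 15.6% and 26.0% of all tested genes. The endosomal receptor Tlr9 (-0.55), the chaperone Cnpy3 (-0.54), the endosomal transporter Slc15a4 (-0.44) and the kinase gene Irak1 (-0.41) fell with Tlr7, as did Tab1 (-0.68), Mapk14, the p38 alpha kinase (-0.72), Cd180 (-0.45) and Hsp90b1 (-0.19). Tlr8 (0.08), Unc93b1, which carries TLR7 to endosomes (-0.13), Traf6 (0.08), Map3k7 (0.09), Mapk8 (0.21), Ikbkg (0.06) and Tab3 (0.06) did not pass. The 4 changes of at least 2-fold in this list were rises. Ikbke went from 7.68, 7.95 and 7.95 to 10.01, 10.20 and 10.16, Irak2 from 7.21, 7.33 and 7.17 to 9.45, 9.38 and 9.42, and Irak3, a kinase-dead inhibitor of the pathway, from 8.40, 8.20 and 8.20 to 9.95, 9.90 and 9.90. Map3k8 (1.86), which links NF-kB to ERK, Myd88 (0.79), Tab2 (0.77), Tirap (0.65), Ikbkb (0.56) and Tbk1 (0.45) also rose. Without knockout saline replicate 2 or knockout R848 replicate 2 or 3 the Hsp90b1 call was lost (adjusted p between 0.0544 and 0.0684), without knockout saline replicate 1 Mapk8 passed (0.0348), and with centring over the tested genes 12 rose and 7 fell, Irak1 and Hsp90b1 not passing.

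Sensors other than TLR7 mostly rose: 20 of 26 were higher and 2 lower, with a median of 0.78. Tlr2, a receptor for bacterial lipoproteins, went from 5.96, 5.84 and 5.53 to 8.84, 8.94 and 8.89. Nlrp3, which nucleates an inflammasome, rose by 3.27, Casp4, a caspase that senses lipopolysaccharide in the cytosol, by 2.30, Tlr1 by 1.59 and Nlrc5 by 1.56. Tlr4, the lipopolysaccharide receptor, was at least 2-fold lower, from 7.70, 7.65 and 7.31 to 6.57, 6.55 and 6.49. The beta-glucan receptor gene Clec7a fell by 0.80. Clec7a was no longer called, so that 1 gene was lower, without knockout saline replicate 1 or 2 or knockout R848 replicate 3 (adjusted p between 0.0887 and 0.105).

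Of the cytokine genes, Tnf was already expressed with saline and several interleukins were not. Tnf went from 8.07, 8.50 and 8.70 to 12.01, 11.99 and 11.98. Il6 rose from 3.46, 3.14 and 3.50 to 7.78, 7.95 and 7.44, and Il12b, the shared chain of interleukins 12 and 23, from 5.11, 4.94 and 4.90 to 9.65, 9.70 and 9.80. Il10, which restrains macrophages, rose from 5.79, 5.79 and 5.97 to 8.78, 8.68 and 9.0. The changes were 3.57 ± 0.12, 4.36 ± 0.14, 4.73 ± 0.09 and 2.97 ± 0.13 (SE, limma adjusted p between 1.93e-14 and 7.55e-11 for these 4 genes). Of 12 tested cytokines of the interleukin 6, 10 and 12 families and others, 7 rose and 0 fell, with a median of 1.07, Il27 (3.26), Ebi3 (2.06) and Il15 (1.77) among them. A second row of Ebi3 changed by 0.77. The interleukin 12 partner chains Il12a and Il23a were below the filter, with means of 3.77 and 3.96 with saline and 4.14 and 4.28 with R848.

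Ifnb1, the gene of interferon beta, was also below the filter and was not tested: it read 3.27, 3.36 and 3.15 with saline and 3.27, 3.20 and 3.20 with R848. In the interleukin 1 family 7 of 10 tested genes rose and 1 fell, with Il18 at 2.42 and Il1rn, the receptor antagonist, at 1.95 behind Il1b and Il1a. Il18rap, a receptor chain, fell by 0.49. In the TNF superfamily 10 of 21 rose (47.6%) and 6 fell (28.6%), with a median of 0.24, against 15.6% and 26.0% of all tested genes. Cd40, the receptor for CD40 ligand, went from 6.41, 6.65 and 6.72 to 10.59, 10.72 and 10.63, the death receptor gene Fas rose by 3.61 and Tnfsf9, which encodes 4-1BB ligand, by 3.22. The receptor genes Tnfrsf21 (-1.02), Tnfrsf23 (-0.97) and Tnfrsf26 (-0.88) fell. Of the colony-stimulating factors and their receptors 4 of 7 rose and 1 fell. Csf1 rose from 5.78, 5.18 and 4.57 to 7.69, 7.63 and 7.42, while its receptor gene Csf1r fell by 0.45. The count of 1 lower was 2 without wild-type saline replicate 3 or knockout R848 replicate 1 or 3, and 2 with the replicate block within genotype.

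Chemokine genes rose without exception among those past the threshold. Of 15 CC chemokines 12 rose and 0 fell, with a median of 1.54, and of 13 CXC and CX3C chemokines 9 rose and 0 fell, with a median of 0.90. Ccl5, which draws T cells and monocytes, went from 7.47, 7.97 and 7.87 to 12.20, 12.15 and 12.24. Ccl12 rose from 4.35, 4.35 and 4.85 to 9.01, 8.85 and 8.97, and Ccl22, a ligand of CCR4, from 4.85, 4.83 and 5.11 to 9.27, 8.96 and 8.83. Ccl7 (2.99), Ccl4 (2.93) and Ccl2 (2.12) followed. Among CXC chemokines the neutrophil attractants Cxcl3 and Cxcl2 rose by 6.16 and 4.67 and Cxcl10, a ligand of CXCR3, from 6.41, 6.31 and 6.70 to 10.67, 10.69 and 10.59. Of the receptors 5 of 12 rose (41.7%) and 3 fell (25.0%), against 15.6% and 26.0% of all tested genes. Ccrl2, a decoy receptor, rose by 3.22, while Cxcr4 (-3.31), Ccr2, the CCL2 receptor of monocytes (-1.18), and Cxcr3 (-0.71) fell. The count of 5 was 3 without knockout R848 replicate 1.

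Some neighbouring genes rose together. In RefSeq's gene order, examined after the values were seen, 12 runs of at least 3 adjacent tested genes, all at least 2-fold higher, were found, and 3 runs of genes at least 2-fold lower. Ccl2, Ccl7, Ccl12 and Ccl8 rose by 1.48 to 4.43, Ccl22, Cx3cl1 and Ccl17 by 1.48 to 4.09, Ccl3, Ccl4 and Wfdc17 by 1.38 to 2.93, Gbp5, Gbp7 and Gbp3 by 2.81 to 5.16, and Trim30c, Trim30a and Trim30d by 1.04 to 2.15. Except for Wfdc17, the genes of each of these runs belong to 1 family, and probes of near-identical copies may bind each other's RNA. The longest run, Plekhg2, Zfp36, Med29, Paf1 and Samd4b, rose by 1.14 to 1.79 and joins genes of unlike function around Zfp36. Among the decreases, Rgs2, Rgs1 and Rgs18 changed by -1.35 to -3.29.

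The inhibitors of NF-kB rose with its subunits. Of 21 tested genes 16 rose and 0 fell, 15 of them at least 2-fold, with a median of 1.95. Nfkbia, the inhibitor IkB alpha, went from 7.70, 7.81 and 8.0 to 11.10, 11.04 and 11.06. Nfkbiz, a nuclear coactivator of the IkB family, rose from 6.67, 6.53 and 6.73 to 10.88, 10.95 and 10.83, and Tnfaip3, the ubiquitin editor A20, from 6.10, 6.77 and 6.44 to 10.28, 10.27 and 10.22. Traf1 (3.27), Bcl3 (3.01) and Tnfaip2 (2.91) were next. Cyld (0.11), Tnip2 (0.07), Otud1 (-0.01), Nfkbid (-0.02) and Rbck1 (-0.15) did not pass.

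The promoters of several of the most induced genes hold a match to the NF-kB consensus motif within the 250 bases before the start of the gene, searched on both strands. They are shown for the 4 genes with the largest rise among those with a match, ranked 4, 11, 18 and 24 among all rises, with the matched letters in capitals, from RefSeq's GRCm38.p6, all on the plus strand.
Cxcl3, chr5:90785851-90786100: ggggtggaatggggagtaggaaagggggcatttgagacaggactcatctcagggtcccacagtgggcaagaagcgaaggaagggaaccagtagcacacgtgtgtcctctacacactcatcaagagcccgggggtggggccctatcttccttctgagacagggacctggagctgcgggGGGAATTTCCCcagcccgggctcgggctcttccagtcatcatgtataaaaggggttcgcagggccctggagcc
Gbp5, chr3:142496684-142496933: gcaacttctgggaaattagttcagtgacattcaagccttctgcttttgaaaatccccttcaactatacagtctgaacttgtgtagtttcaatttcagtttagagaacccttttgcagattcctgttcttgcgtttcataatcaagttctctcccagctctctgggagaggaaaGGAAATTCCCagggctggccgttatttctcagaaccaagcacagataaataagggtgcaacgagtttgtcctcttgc
Cxcl2, chr5:90903649-90903898: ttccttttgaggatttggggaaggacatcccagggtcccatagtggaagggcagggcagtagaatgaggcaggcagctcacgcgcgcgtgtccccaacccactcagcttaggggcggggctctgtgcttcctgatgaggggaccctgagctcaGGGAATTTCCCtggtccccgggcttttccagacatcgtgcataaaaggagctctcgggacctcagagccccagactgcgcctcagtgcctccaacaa
Il6, chr5:30012864-30013113: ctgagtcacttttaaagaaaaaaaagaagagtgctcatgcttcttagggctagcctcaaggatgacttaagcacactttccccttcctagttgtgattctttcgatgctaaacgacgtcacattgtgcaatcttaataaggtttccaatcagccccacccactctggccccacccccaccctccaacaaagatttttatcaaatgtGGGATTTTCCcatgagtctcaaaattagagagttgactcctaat

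The matches begin 73, 77, 97 and 44 bases before the start of Cxcl3, Gbp5, Cxcl2 and Il6. In Cxcl3 and Cxcl2 the capitals hold 2 overlapping matches on opposite strands. A match was present in the promoters of 56 of 437 genes at least 2-fold higher (12.8%) and 29 of 143 at least 4-fold higher (20.3%). It was present in 14 of 430 at least 2-fold lower (3.26%), 582 of 10944 tested genes with a promoter in the table (5.32%) and 1204 of all 27025 genes of the table (4.46%). In the 100 bases nearest the start it was found for 7.32% of the genes at least 2-fold higher, 0.698% of those at least 2-fold lower and 2.13% of the tested genes. The 15 largest increases were not alike in this: of the 13 with a promoter, 2 held a match. The interferon response letters GAAANNGAA, searched on both strands too, were found for 11.0% of the genes at least 2-fold higher, 8.14% of those lower and 7.71% of the tested genes. The AP-1 letters TGANTCA gave 8.47%, 7.91% and 6.07%, and the cyclic AMP response letters TGACGTCA 2.29%, 2.33% and 2.75%. A promoter may hold several of these motifs, and a match is a description of its letters.

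Feedback genes moved both ways. Of 26 SOCS, phosphatase and other feedback genes 10 rose and 7 fell, with a median of 0.02. Rises made up 38.5%, against 15.6% of all tested genes, and falls 26.9%, against 26.0%. Socs3, which blocks gp130 signals, went from 4.34, 4.50 and 4.72 to 9.31, 9.26 and 9.36, although a second row of it rose by 2.29. Dusp2, a phosphatase of ERK and p38, rose from 5.18, 5.09 and 5.40 to 8.72, 8.87 and 8.87, Ier3 by 3.45 and Dusp16 by 2.73. Inpp5d, the inositol phosphatase SHIP1, fell from 9.16, 9.08 and 9.01 to 6.49, 6.34 and 6.51. Dusp6 (-3.57) and Dusp7 (-1.42), which act on ERK, fell too. Among 16 mRNA decay factors 9 rose (56.2%) and 4 fell (25.0%). The Regnase genes Zc3h12c (3.05) and Zc3h12a (2.72) and the tristetraprolin gene Zfp36 (1.79) rose, opposite to the paralogs Zfp36l1 and Zfp36l2.

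Genes of Ras and Rap signalling, the pathway in which Rasgef1b acts, were split as well. Of 33 tested GTPases and their regulators, which load GTP or hasten its hydrolysis, 15 rose and 10 fell, with a median of 0.07. These were 45.5% and 30.3%, against 15.6% and 26.0% of all tested genes. Rapgef2, a Rap activator, went from 6.26, 6.22 and 6.06 to 9.12, 9.16 and 9.22, and Ralgds, a Ral activator, from 6.78, 6.93 and 6.76 to 9.20, 9.13 and 9.04. Rasgrp1, a Ras activator, rose by 1.98, while its relative Rasgrp3 had the largest fall of all named genes. Rasa3 (-2.87), Rasa1 (-1.65) and Rgl2 (-0.99) also fell. Of 15 ERK output and Sprouty genes 4 rose and 7 fell, with a median of -0.18, and 6 rose and 6 fell after centring over the tested genes. Ccnd1, which encodes cyclin D1, went from 9.35, 9.78 and 9.85 to 7.87, 7.71 and 8.25. Etv5 (-1.43), Etv1 (-1.18) and Spry2 (-1.07) fell, and second rows of Etv5 and Etv1 changed by -0.06 and -0.13. Phlda1 (1.22), Plaur (1.29) and Ier2 (1.07) rose. Among 8 regulators of G protein signalling 5 fell and 1, Rgs16 (0.65), rose.

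Transcription factors of the immediate early class moved both ways at 4 h: 12 of 27 rose and 8 fell, with a median of 0.12. These were 44.4% and 29.6%, against 15.6% and 26.0% of all tested genes. Batf, a partner of IRF factors, went from 4.86, 4.46 and 4.71 to 8.09, 7.91 and 8.08, Klf7 rose by 2.52 and Junb by 1.76. Fos (-0.94), Jun (-0.85), Klf10 (-1.50) and Klf2 (-1.25) fell. Jak2, the kinase of several cytokine receptors, went from 7.59, 7.47 and 7.34 to 10.47, 10.46 and 10.30, and Stat5a (1.73), Irf1 (1.18) and Stat3 (0.89) rose with it. In that list of IRF, STAT and JAK genes 7 of 18 rose (38.9%) and 4 fell (22.2%). Factors of the macrophage lineage were split, with 11 of 27 higher and 13 lower and a median of -0.26. Bhlhe41 fell from 7.47, 7.54 and 7.34 to 4.93, 5.02 and 5.11, and Mef2c (-2.14), Fli1 (-2.04) and Cebpa (-1.88) fell, while Cebpd (2.52) and Cebpb (2.33) rose. A second row of Mef2c changed by -1.43.

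Interferon-stimulated genes were higher in large part. Of 32 tested antiviral genes 26 rose and 0 fell, 14 of them at least 2-fold, with a median of 0.85. Mx2 went from 5.47, 5.46 and 5.50 to 8.24, 8.33 and 8.09, Mx1 from 6.25, 6.33 and 6.22 to 8.81, 9.20 and 8.83, and Usp18, which restrains interferon receptor signals, from 7.76, 8.17 and 7.97 to 10.21, 10.68 and 10.57. Ifit1 (2.22), Rsad2 (1.71) and Isg15 (1.49) were next. The list was uneven: Ifit3, usually induced with Ifit1, read 6.27, 6.14 and 6.13 and then 6.36, 6.17 and 6.07, and did not pass, nor did Oas3 (0.09), Oasl2 (0.11) or Bst2 (-0.03). Of 11 guanylate-binding and immunity-related GTPases 10 rose, with a median of 1.25, Gbp7 (2.90) and Gbp3 (2.81) behind Gbp5. Receptor chains for interferons and cytokines were split, 8 higher and 10 lower of 19, or 8 and 7 after centring over the tested genes. Il6ra, the interleukin 6 receptor, fell from 9.36, 8.94 and 8.83 to 7.18, 6.76 and 7.07, and Lifr (-1.97) and Il6st, the shared gp130 chain (-1.69), fell. Il4ra (2.29) and Il13ra1 (2.18) rose.

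**Figure D3:**
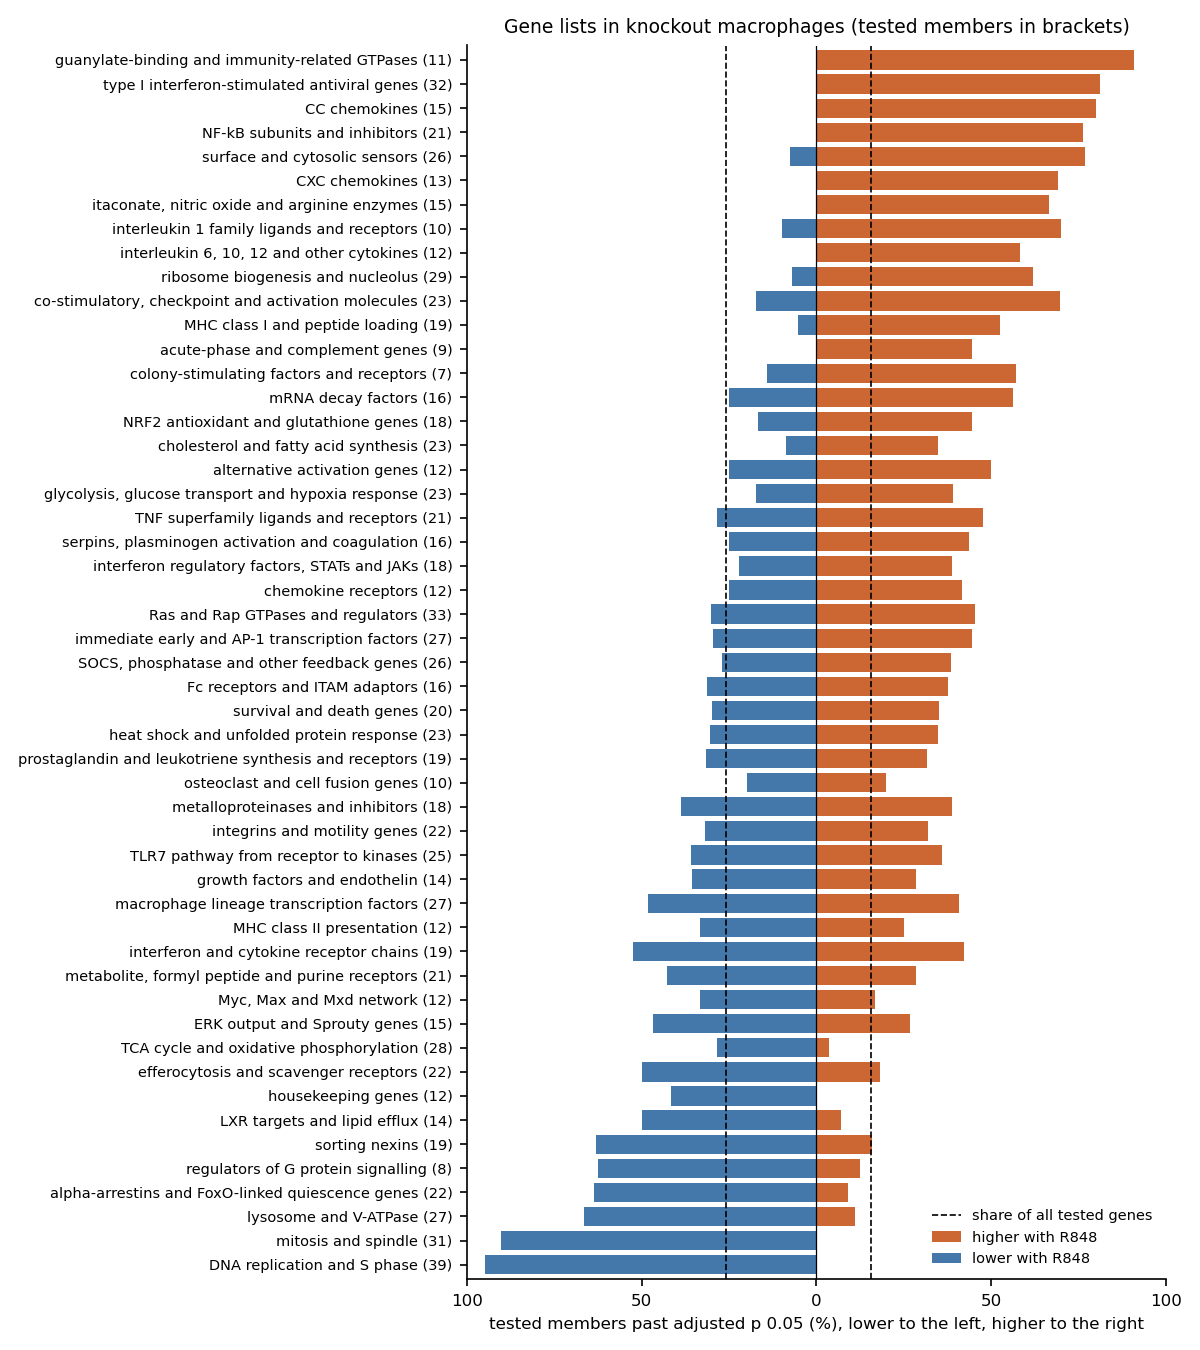
Share of the tested members of each gene list that passed adjusted p 0.05 in knockout macrophages, higher with R848 to the right and lower to the left, lists ordered by the difference of these shares. Dashed lines give the same shares over all tested genes, 15.6% higher and 26.0% lower; the DNA replication (37 of 39 lower) and mitosis (28 of 31 lower) lists lie at the bottom and the guanylate-binding GTPases (10 of 11 higher) at the top.

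Surface molecules of antigen presentation rose more than the presenting machinery. Of 23 co-stimulatory and checkpoint molecules 16 rose and 4 fell, with a median of 0.81. Icam1, an adhesion molecule, rose by 3.44, Cd274, which encodes PD-L1, from 7.43, 7.76 and 7.32 to 10.09, 10.44 and 10.39, and Icosl by 2.28. Havcr2, the checkpoint receptor TIM-3, fell by 1.63 and Cd200r1 by 1.38. In the class I list 10 of 19 rose and 1 fell, none of them 2-fold, with Tap1 at 0.96, H2-Q5 at 0.90 and Psmb10 at 0.90; a second row of H2-Q5 changed by 0.05. In the class II list 3 of 12 rose and 4 fell, H2-Ab1 going from 7.32, 6.88 and 7.04 to 8.09, 7.95 and 7.97. The count of 4 was 2 without knockout saline replicate 1 and after centring over the tested genes, and the 1 lower class I gene, Pdia3, was not called without knockout saline replicate 2 or knockout R848 replicate 1.

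Receptors for small ligands gave large changes in both directions, 6 of 21 rising and 9 falling, all 6 rises being at least 2-fold, or 9 and 8 after centring over the tested genes. Hcar2, a receptor for nicotinic acid and ketone bodies, went from 4.76, 5.17 and 4.65 to 9.04, 9.18 and 9.20. S1pr1 (-2.96), Gpr183, an oxysterol receptor (-1.80), and C5ar2 (-1.39) fell. Scavenger and efferocytosis receptors had 4 of 22 higher and 11 lower, with a median of -0.25. Mertk, which binds apoptotic cells through bridging proteins, fell from 7.36, 7.79 and 7.13 to 5.38, 5.64 and 5.51, and Stab1 (-1.29) and Gas6, a Mertk ligand (-1.15), fell too. Marco rose from 6.0, 5.68 and 6.03 to 8.48, 8.25 and 9.0, and Olr1, a receptor for oxidized lipoprotein, by 2.64. Fcgr2b, the inhibitory Fc receptor, went from 8.19, 7.96 and 7.65 to 11.21, 11.16 and 11.22, within a list of 16 with 6 higher and 5 lower, or 9 and 2 after centring over the tested genes. Of 22 integrins and motility genes 7 rose and 7 fell, led by Itgal (3.49) and Itgb8 (2.92) above and Arhgap25 (-3.00) and Dock8 (-1.45) below.

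Secreted enzymes and factors changed in both directions. Mmp14, a membrane metalloproteinase, went from 4.48, 4.52 and 4.84 to 9.26, 9.22 and 9.30, and Adamts4 (3.38), Mmp13 (3.37) and Mmp9 (2.20) rose, in a list of 18 with 7 higher and 7 lower. Serpinb2, an inhibitor of plasminogen activators, went from 3.66, 3.65 and 3.78 to 7.58, 7.21 and 7.67. Plau, the activator urokinase, fell from 10.28, 10.67 and 10.42 to 8.47, 8.88 and 8.69. In this list 7 of 16 rose (43.8%) and 4 fell (25.0%), against 15.6% and 26.0% of all tested genes. Among acute-phase and complement genes 4 of 9 rose and 0 fell: Saa3, Lcn2 (4.33), Cfb (1.88) and Hp (1.25). Of 14 growth factors 4 rose, Edn1 and Adm (2.19) the most, and 5 fell, Hgf (-1.19) the most. The count of 5 was 3 without knockout saline replicate 2 or knockout R848 replicate 3, and after centring over the tested genes 6 rose and 4 fell.

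The enzymes of inflammatory metabolism rose, while the prostaglandin list was divided. Of 15 genes of itaconate, nitric oxide and arginine metabolism 10 rose and 0 fell, with a median of 0.90. Nos2 went from 4.56, 4.17 and 5.55 to 10.07, 9.71 and 9.66, Gch1, which makes its cofactor, rose by 2.05, and Slc7a2, an arginine transporter, from 5.31, 5.38 and 5.61 to 7.38, 7.49 and 7.08. Arg1, which competes with Nos2 for arginine, changed by -0.04 (adjusted p = 0.746). Behind Ptgs2 in its list stood Ptges (1.96), the prostaglandin E synthase, and Pla2g4a (1.83), which frees arachidonic acid. Hpgd (-1.43), which degrades prostaglandins, Tbxas1 (-0.94) and Lta4h (-0.71) fell. In all 6 of 19 rose and 6 fell, 31.6% each, against 15.6% and 26.0% of all tested genes.

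Other metabolic lists changed in part. Pfkfb3, whose product drives phosphofructokinase, went from 5.27, 5.38 and 5.36 to 8.57, 8.88 and 8.44, and the glucose transporters Slc2a6 (2.70) and Slc2a1 (1.61) and Hk2 (1.23) rose, while Ldha (0.13), Pgk1 (0.12) and Gapdh (-0.04) did not pass. In that list 9 of 23 rose and 4 fell, and 7 fell with the replicate block within genotype. After centring over the tested genes 12 rose, Ldha among them, and 2 fell. A second row of Slc2a1 changed by 0.44. In the NRF2 list 8 of 18 rose and 3 fell. Mt2, a metallothionein, went from 7.71, 7.46 and 7.38 to 11.09, 11.03 and 11.01, Sod2, the mitochondrial superoxide dismutase, rose by 3.17, and Slc7a11, a cystine importer, from 3.38, 3.46 and 3.48 to 6.82, 6.60 and 6.37. Of 28 citric acid cycle and respiratory chain genes 8 fell (28.6%, against 26.0% of all tested genes) and 1 rose. Idh1 (-1.17) was the only one at least 2-fold lower, from 9.59, 9.77 and 9.30 to 8.42, 8.36 and 8.36. The count of 8 was 5 without knockout R848 replicate 1 or 2, and after centring over the tested genes 4 rose and 4 fell. The count of 1 was 3 with either replicate block and 0 without knockout saline replicate 1 or 2 or knockout R848 replicate 2, and 2 without wild-type saline replicate 1 or 3 or wild-type R848 replicate 1.

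Lipid genes depended on single arrays. Of 23 cholesterol and fatty acid synthesis genes 8 rose and 2 fell, with a median of 0.35. Hmgcs1, an early enzyme of the pathway, went from 8.40, 8.76 and 7.98 to 9.65, 9.79 and 9.09, both groups being lowest in replicate 3. Ch25h (1.28), Cyp51 (0.87), Hsd17b7 (0.87) and Fdft1 (0.84) rose, and Dhcr7 (-0.88) fell. A second row of Ch25h changed by 0.26. The count of 8 was 13 with the replicate block within genotype and without knockout R848 replicate 3, 5 without knockout saline replicate 3 and 14 with centring over the tested genes. Cyp51 was not called without knockout saline replicate 3 (0.0574) or knockout R848 replicate 2 (0.0658). The count of 2 was 1 without knockout saline replicate 1 or knockout R848 replicate 3. Of 14 LXR target and lipid efflux genes 7 fell, Npc1 (-0.85), Plin2 (-0.79) and Abcg1 (-0.73) the most, and Nr1h3, the LXR alpha gene, rose (0.83). The count of 7 was 4 without knockout R848 replicate 3 and 3 after centring, and the count of 1 was 2 without knockout saline replicate 2 and with the replicate block within genotype.

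Genes of cell division fell almost throughout. Of 39 DNA replication genes 37 fell and 0 rose, 19 of them at least 2-fold, with a median of -0.89, and after centring 35 fell. Mcm2, a subunit of the replicative helicase, went from 7.25, 7.25 and 7.70 to 5.79, 5.60 and 6.12. Pole2, a subunit of DNA polymerase epsilon, fell from 5.70, 5.71 and 5.96 to 4.18, 4.13 and 4.18, at background, and Prim1 (-1.63), Cdt1 (-1.63) and Mcm6 (-1.53) fell alike. The other two, Tyms (-0.30) and Mcm10 (-0.31), did not pass. Tyms did without wild-type saline replicate 1 or 3 (0.0431 and 0.0169), and Mcm10 did with either replicate block and without knockout saline replicate 1 or 2 (0.0338 and 0.0458). Of 31 mitosis genes 28 fell and 0 rose, with a median of -0.85. Kif23, a motor of cytokinesis, went from 8.02, 7.62 and 8.0 to 6.20, 5.70 and 6.18, and Ndc80 (-1.47), Kif11 (-1.40) and Ccna2, a cyclin gene (-1.31), fell. Replicate 2 was lowest for Kif23 in both treatments.

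Genes of quiescence fell at the same time, and genes of ribosome production rose. Of 22 alpha-arrestin and FoxO-linked genes 14 fell and 2 rose, with a median of -0.46. Txnip, which limits glucose uptake, went from 11.25, 11.21 and 11.11 to 9.16, 9.26 and 9.33, Sesn1 from 8.02, 8.01 and 7.51 to 5.62, 5.60 and 5.43, and Foxo3 fell by 1.38. Arrdc4, the paralog of Arrdc3, rose by 1.03, and the cell cycle inhibitor Cdkn1a by 0.57. Mxd4, an antagonist of Myc, fell from 7.64, 7.32 and 6.89 to 5.53, 5.44 and 5.50, while Myc itself (0.26) did not pass, except without knockout R848 replicate 2 (0.0239) and with centring over the tested genes (0.0144). Of 29 ribosome biogenesis genes 18 rose, with a median of 0.40, led by Rrs1 (1.11), Wdr43 (0.93), Nop58 (0.91) and Ddx21 (0.75). The list's 2 lower genes, Wdr12 and Rrp1b (both -0.25), were no longer called with cyclic loess, with centring over the tested genes, with array weights, or without knockout saline replicate 1 or 3, and 1 remained without knockout R848 replicate 1, 2 or 3.

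Stress and survival genes showed single large rises. Hspa1b, an inducible heat shock protein gene, went from 4.62, 4.45 and 4.41 to 7.80, 8.17 and 8.48, while its near-identical copy Hspa1a, whose probes may share transcripts with it, rose by 0.88. Herpud1, of endoplasmic reticulum stress, rose by 1.85, and Dnajb9 (-0.89) fell, in a list of 23 with 8 higher and 7 lower, or 13 and 5 after centring over the tested genes. The survival gene Bcl2a1a went from 4.18, 5.14 and 4.56 to 8.50, 8.69 and 8.51, a row that may also read its paralogs. Pim1 (2.85), Gadd45b (2.69) and Birc3 (2.32) rose and Bcl2 (-1.03) fell, in a list of 20 with 7 higher and 6 lower. Second rows of Bcl2 and Pim1 changed by -0.02 and 0.29. After centring 9 rose and 3 fell.

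Genes of lysosomes and endosomal sorting were lower. Of 27 lysosome genes 18 fell and 3 rose, with a median of -0.28, and 12 fell after centring. Atp6v0d2 (-1.06), Atp6v0a1 (-0.88), Npc1 (-0.85) and Scarb2 (-0.77) fell the most, and Ctsc (0.89) rose. Of 19 sorting nexins 12 fell and 3 rose, or 10 and 5 after centring. Snx30 went from 8.48, 8.78 and 8.55 to 5.35, 5.12 and 5.58, Snx24 from 7.98, 8.18 and 7.85 to 4.83, 4.77 and 4.93, and Snx29 fell by 2.10, while Snx18 rose by 1.24. Of 10 osteoclast genes Mmp9 (2.20) and Acp5 (1.55) rose and Nfatc1 (-1.93) and Atp6v0d2 fell, the count of 2 higher being 4 without wild-type R848 replicate 3 and after centring. Of 12 alternative activation genes 6 rose and 3 fell, or 7 and 1 after centring, the rises including Ccl22 (4.09), Il4ra (2.29) and Tgm2 (2.09) and the falls Egr2 (-0.81) and Mrc1 (-0.78). The Egr2 call was lost without knockout saline replicate 1 or 2 or knockout R848 replicate 2 or 3 (adjusted p between 0.0762 and 0.144). Of 12 housekeeping genes 5 fell (41.7%, against 26.0% of all tested genes), Polr2a (-0.82) the most, and the median was -0.07 against -0.03. That count was 3 without knockout saline replicate 2 or knockout R848 replicate 1 or 3, and after centring 2 rose and 3 fell.

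MicroRNA genes were chosen for description after their values were seen. The rows carry the symbols of miRNA genes and whether they read hairpins, primary transcripts or host genes is not settled by the files, so their values are not levels of the mature arms. Of 188 tested, 26 rose (13.8%) and 21 fell (11.2%), against 15.6% and 26.0% of all tested genes. Of these, 7 changed at least 2-fold, 4 higher and 3 lower, while 7.72% of all tested genes did so. The mature sequences of 5 genes that rose and 2 that fell, not the same 7, are shown from RefSeq's GRCm38.p6, with the seed, bases 2 to 8, in capitals. Mir221, Mirlet7i and Mir222 among them changed less than 2-fold. They include 2 pairs that share a seed, miR-221-3p with miR-222-3p and let-7e-5p with let-7i-5p.
mmu-miR-146a-5p, chr11:43374435-43374456, minus strand: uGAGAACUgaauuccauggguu
mmu-let-7e-5p, chr17:17830366-17830387, plus strand: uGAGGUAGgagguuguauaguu
mmu-let-7i-5p, chr10:122985698-122985719, minus strand: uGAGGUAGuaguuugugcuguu
mmu-miR-221-3p, chrX:19146307-19146329, minus strand: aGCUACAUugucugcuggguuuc
mmu-miR-222-3p, chrX:19146901-19146923, minus strand: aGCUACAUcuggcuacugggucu
mmu-miR-23b-5p, chr13:63300492-63300512, plus strand: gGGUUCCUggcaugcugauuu
mmu-miR-511-3p, chr2:14261051-14261072, plus strand: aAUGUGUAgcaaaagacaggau

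Mir146, known for targeting IRAK1 and TRAF6 in a feedback loop, read 3.36, 3.24 and 3.22 with saline and 5.37, 5.17 and 5.64 with R848, a rise of 2.12. Mirlet7e rose from 4.14, 4.05 and 3.93 to 6.50, 6.28 and 6.06, and its neighbour Mir99b by 0.48. Both Mir146 and Mirlet7e thus rose from below the dim limit, and among the knockout arrays only those with R848 could bring them past the filter. Of the genes that share a seed with another, Mirlet7i rose by 0.96, Mir221 from 6.04, 6.36 and 6.43 to 7.15, 7.28 and 7.27, and Mir222 by 0.63. Mir23b fell from 7.65, 7.68 and 7.89 to 5.55, 6.03 and 5.77, and Mir511, which lies within the Mrc1 gene, by 1.38. Mrc1 itself fell by 0.78. Mir3095 (1.29), Mir483 (1.23) and Mir5123 (-1.25) were the others past 2-fold.

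The response was compared over the knockout replicates. The labels do not say whether these replicates came from separate animals, and p-values therefore reflect array-to-array spread that could be technical. All 1087 genes past the threshold and 2-fold had the same sign in the 3 same-numbered differences, 839 were at least 2-fold in all 3, and for 1086 the groups did not overlap. These genes were picked for a large change on the same arrays, which favours 1 sign and no overlap. Over all tested genes 48.8% had no overlap. Same-numbered differences spanned a median of 0.32 per gene, and 14 genes spanned more than 1. Pla2g10os spanned the most, 1.81, through a saline value of 3.33 in replicate 2 against 5.03 and 5.05. Its call was lost without knockout saline replicate 2 (0.717, adjusted p = 0.163), without knockout R848 replicate 2 (1.340, 0.0573) and without knockout R848 replicate 3 (1.125, 0.0991). Cxcl2 followed with 1.47, from 4.60, 5.27 and 5.95 with saline to 10.07, 9.80 and 9.95 with R848, its spread lying in the saline arrays. The histone gene H2bc12 (1.43) was the exception to the lack of overlap, reading 7.74, 6.18 and 6.88 and then 5.97, 4.54 and 6.54. Its change of -1.25 was not called without knockout saline replicate 1 (-0.847, 0.170) or 3 (-1.277, 0.0683) or without knockout R848 replicate 2 (-0.678, 0.191). Nos2 (1.43), Hpgd (1.30), Olr1 (1.23), Abcd2 (1.21), Cxcr4 (1.11), St7 (1.09) and Sh2d1b1 (1.07) made up the 10 widest.

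**Figure D4:**
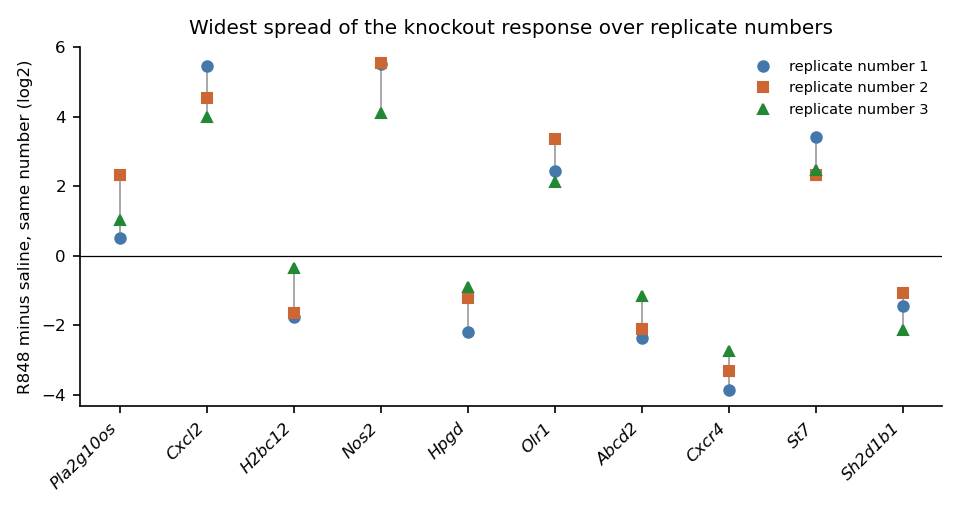
R848 minus saline (log2) for the same replicate number, in the 10 genes at least 2-fold changed whose 3 differences spread the most in knockout macrophages. Each marker is 1 replicate number; the differences of each gene share 1 sign, and the spread runs from 1.07 (Sh2d1b1) to 1.81 (Pla2g10os).

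Whether the knockout response differs from the wild-type one was tested by the difference between the responses. It passed for 2 of 14079 genes (0.0142%), and 694 (4.93%) had an unadjusted p under 0.05. The median difference over all tested genes was -0.01, with a median SE of 0.13. Cxcl1, a neutrophil attractant, read 4.69, 4.23 and 4.64 with saline and 5.29, 5.19 and 5.77 with R848 in knockout cells, against 4.26, 4.17 and 4.30, and 8.19, 8.25 and 8.08, in wild type. The knockout arrays with R848 thus all lay above those with saline and far below the wild-type arrays with R848. Its responses were 0.90 and 3.93, a difference of -3.03 ± 0.20 (SE, adjusted p = 4.58e-06, 95% interval -3.46 to -2.61). Cxcl2 and Cxcl3, which attract the same cells and lie in the same gene cluster, differed by 0.37 and 0.15 (adjusted p = 0.996 for both).

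Enpp4, of a family that cleaves extracellular nucleotides, went the other way. It read 4.56, 4.56 and 4.27 and then 5.53, 5.71 and 5.53 in knockout cells, against 4.72, 4.79 and 4.68, and 4.97, 4.95 and 4.91, in wild type. The responses of 1.13 and 0.21 differed by 0.91 ± 0.12 (SE, adjusted p = 0.0226, 95% interval 0.65 to 1.18). The saline values lay near the dim limit of 4.31 to 4.35, with a mean of 4.46 in knockout and 4.73 in wild type. Leaving out any 1 of the 9 arrays that are not knockout saline ended the Enpp4 call (differences of 0.853 to 0.943, adjusted p between 0.0545 and 0.122), leaving 1 gene past the threshold each time.

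Genes with the next smallest p in each direction did not pass. Csf3, the granulocyte colony-stimulating factor gene, rose by 0.53 in knockout, from 4.18, 4.34 and 4.49 to 4.96, 4.78 and 4.87, and by 1.45 in wild type (difference -0.91, adjusted p = 0.127, and 0.0481 with array weights). Il1f9, of the interleukin 1 family, rose from 2.99, 3.10 and 3.32 to 3.82, 3.46 and 3.96, below the dim limit in every knockout array, and by 1.63 in wild type (difference -1.02, adjusted p = 0.277). Only the wild-type arrays with R848 brought it past the filter. Rps15a-ps5 (-0.50) and Acad12 (-0.48) also had lower differences, and Dusp5 (0.77), Cytip (0.61), Gpr18 (0.57) and Mybl2 (0.51) higher ones. Of the 1087 genes at least 2-fold changed in knockout, 34 had a difference of 0.5 or more in size, and 1, H2bc12 (-1.01, adjusted p = 0.996), of 1 or more. A p that misses the threshold does not show that these responses are alike.

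**Figure D5:**
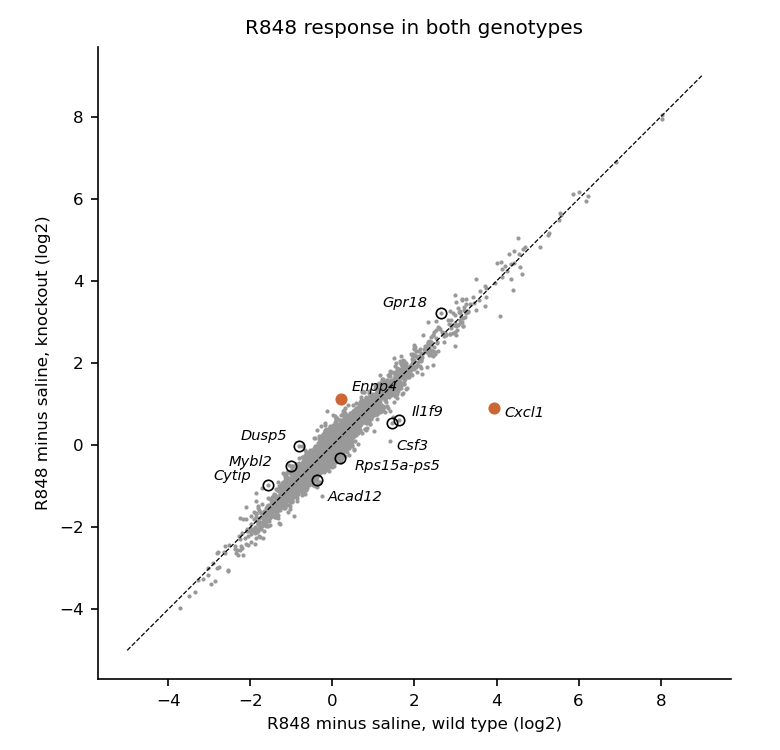
Change with R848 in knockout (vertical) against wild-type macrophages (horizontal), both log2, 1 point per tested gene, with a dashed line where they are equal. Filled circles are the 2 genes whose responses differ past the threshold, Cxcl1 (0.90 in knockout, 3.93 in wild type) and Enpp4 (1.13 and 0.21); open circles are the 8 next smallest p.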

How the data were processed

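Total RNA was converted to biotin-labelled cDNA for Mouse Gene 2.1 ST strips, per the labels' protocols. Per the submitters' processing notes, Affymetrix Expression Console and RMA made the values, which the authors deposited as log2 intensities between 2.15 and 12.85. Their versions and settings are not stated in the labels. RMA equalizes the arrays' distributions, so a change in total RNA cannot be seen. Array depth is limited by the number of arrays. Strip and scan time were not used here.

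Of 34472 rows, 23521 had 1 symbol, 1814 several and 9137 none. For 1082 genes with several rows the one with the highest mean was used. Genes above the 40th percentile (4.31 to 4.35) on at least 3 arrays were tested. All 12 arrays entered 1 limma fit (limma 3.58.1, R 4.3.3; lmFit, eBayes) estimating each group's mean without a block. The fit was tested on simulated data. Members, gene lists and naming rules (the 15 largest changes each way without overlap and clone names, up to 6 and 4 members per list, the smallest p up to 5 each way for differences, the 10 widest ranges, and 8 rises and falls across the dim limit) and 10 genes always named were chosen with earlier results of these data known, and members of a list may be named to show that they did not pass. Same-numbered knockout residuals correlated at 0.27, 0.17 and 0.28, above the set minimum of 0.1. Any pairing by number rests on the data, since the labels do not say what the numbers mark. The main fit ignores the numbers, and fits with a replicate block are given as alternatives. Promoter and miRNA sequences came from RefSeq (GRCm38.p6); 161 of 188 tested miRNA genes had a mature sequence.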

Additional observations from a re-analysis of the deposited data

Results flagged for a closer look

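The R848 response of Cxcl1 differed between the genotypes by -3.03 on the log2 scale, with every knockout R848 array below every wild-type R848 array. The response of Enpp4 differed by 0.91 in the other direction. Both were picked out because the difference between the knockout and wild-type responses was itself past the threshold. Groups of 3 arrays were too small to be screened for single outlying arrays.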

How the results depend on the processing

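Counts of genes past the threshold in knockout ranged from 5266 to 6918 over the alternatives, and 1051 to 1129 were at least 2-fold, but 558 when a change of at least 1 was tested. With the replicate block, the count was 6180 with numbers shared by genotypes and 6268 with numbers within genotype, against 5858. In a fit of the 6 knockout arrays it was 5461, and the difference between genotypes could not be computed there. Leaving out 1 array gave 1 to 2 genes whose responses differed, and a Rasgef1b change of 0.462 to 0.995, and array weights gave 3 such genes. In the 100 bases before the start, 7.32% of the genes at least 2-fold higher held an NF-kB match. Of the values for named genes in the knockout response, 3766 of 3804 kept their call with 1 array left out and 3945 of 4109 with other settings. None changed direction where the gene passed in either fit. A change of sign between fits where the gene did not pass was not counted. Of the counts for gene lists, 1345 of 1392 and 1337 of 1392 stayed within 1.5 times. The number of arrays limits what small changes can be seen.
The planned fit with a surrogate variable was not run.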
